A study of Glycine max with 8 samples.

Results

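NIN (nodule inception) is a plant transcription factor of the RWP-RK type that legumes need to form root nodules, and soybean (Glycine max) carries 4 NIN genes in 2 homeolog pairs. The 4 genes were taken by their identifiers, and are NIN1a (Glyma.04G000600.Wm82.a2.v1, chromosome 4) with its homeolog NIN1b (Glyma.06G000400.Wm82.a2.v1, chromosome 6), and NIN2a (Glyma.02G311000.Wm82.a2.v1, chromosome 2) with NIN2b (Glyma.14G001600.Wm82.a2.v1, chromosome 14). They are 4 of the 43517 genes counted, and all 4 passed the filter on low counts that kept 29508 genes for testing. The chromosome is the one written in the identifier. Nodule RNA was sequenced from soybean at low nitrogen, which both groups shared. Group BR received the strain labelled Bac.B together with the strain labelled Bra.Q2, and group R received Bra.Q2 alone. Each group held 4 libraries, numbered 1 to 4. The labels give neither plant age nor the plants behind each library, so a p-value weighs only how far these libraries differ, and part of that may be technical.

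In Lotus japonicus, where it was first described, NIN is switched on when the plant perceives rhizobial Nod factors, through the calcium-dependent kinase CCaMK and its partner CYCLOPS. It is needed both for entry of the bacteria through infection threads and for the cell divisions that build the nodule, and among its targets are genes of NF-Y transcription factor subunits. NIN also turns on CLE peptide genes of the systemic feedback, called autoregulation, by which a legume limits its nodule number. In bulk nodule RNA, fewer cells with a transcript and less transcript per cell cannot be told apart.

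Library totals were 15133989 to 17287964 counts in BR and 14223489 to 15266510 counts in R. The NIN genes drew 504 to 6388 counts per library, at which counting alone gives an error of 4.45% to 1.25%. Correlations of log2 CPM (counts relative to library size, here after TMM scaling) ranged between 0.955 and 0.981 among the BR libraries and, more widely, between 0.903 and 0.975 among the R libraries. On the first principal component the BR libraries scored -62.2 to -51.1, against 29.1 and -3.08 for R1 and R2 and 95.9 and 102.5 for R3 and R4. Neither deposited file names genes, so the tissue label was not checked against nodule markers.

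With Bac.B added, both NIN2 homeologs fell and neither NIN1 homeolog passed the test. NIN2a was at 0.567 times and NIN2b at 0.42 times its level in R, while the fitted levels of NIN1a and NIN1b were 0.689 and 0.839 times those in R. The call of NIN2b, unlike that of NIN2a, was lost without R3 and R4. A gene was called at an adjusted p below 0.05. The 2 called genes of 4, both lower in BR, stand beside 10.3% of all tested genes called lower and 18.3% called in either direction. Lower calls were more frequent among abundant genes, to which the NIN2 pair belongs. Of the 1531 genes with a mean above 100 CPM, 25.2% were called lower, and of those between 20 and 100 CPM, the range of the NIN1 pair, 17.6%. The median log2 fold change of the 4 NIN genes was -0.68, against -0.02 over all tested genes and -0.28 over the genes above 100 CPM.

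**Figure D1:**
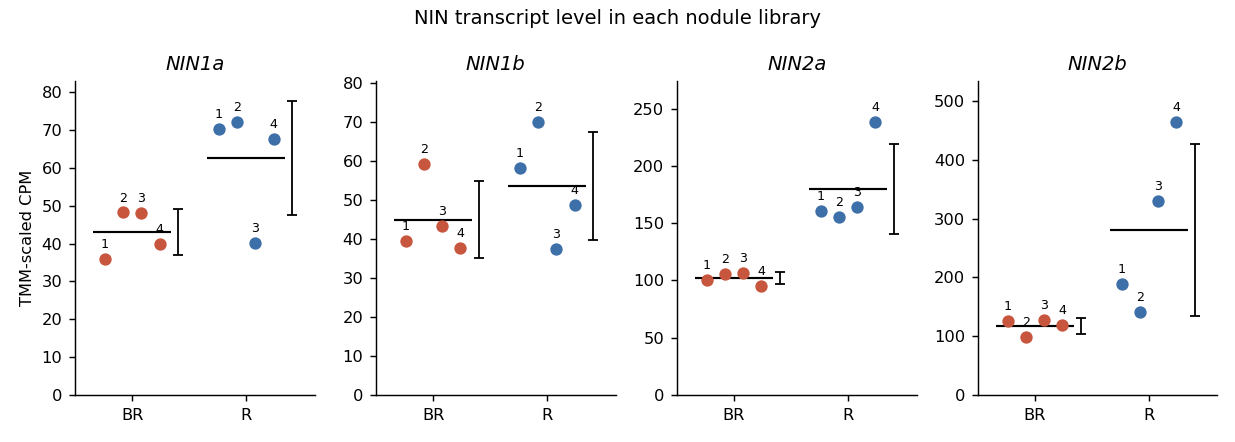
TMM-scaled CPM (vertical axes, separate scale for each gene) of the 4 NIN genes in BR and R libraries; points are libraries with their replicate number, horizontal bars are means and the bars beside them SD (n = 4). On this scale NIN2a and NIN2b lie lower in all 4 BR libraries than in any R library (for NIN2b not so with total counts), with R3 and R4 far above the others for NIN2b, whereas the groups overlap for NIN1a and NIN1b.

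NIN2a had the narrowest spread of the 4 genes in BR. It measured 100.3, 106, 106 and 95.3 CPM in BR1 to BR4, against 161, 156, 164 and 238 CPM in R1 to R4. The BR libraries were close together, all R libraries lay above them, and R4 stood above the other R libraries. The lowest R library was 1.46 times the highest BR library; over all tested genes 13.1% had all BR libraries below all R libraries, and 27.5% of those above 100 CPM did. NIN2a averaged 102 ± 5.23 CPM in BR and 179.8 ± 39.3 CPM in R (SD, n = 4). The log2 fold change was -0.82 (SE 0.17, 95% interval -1.19 to -0.45; Benjamini-Hochberg adjusted p = 0.0106 in edgeR's quasi-likelihood test). Among 1096 genes within 1.5-fold of its mean level, 16.2% had a lower fold change, and its SD on the log2 scale within BR, 0.07, was above that of only 4.56% of them. The fall of NIN2a passed the test in all 21 alternative settings, which are scalings, filters, tests and left-out libraries, at log2 fold changes from -0.97 to -0.59.

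NIN2b fell further on average but varied much more between R libraries. It measured 126, 98.6, 128 and 119 CPM in BR1 to BR4, against 188, 141, 330.2 and 465 CPM in R1 to R4. The R3 and R4 libraries were high, whereas R2 lay only 1.1 times above the highest BR library. The means were 118 ± 13.5 CPM in BR and 281 ± 146 CPM in R (SD, n = 4). The log2 fold change was -1.25 (SE 0.33, 95% interval -1.99 to -0.52; edgeR adjusted p = 0.0284). Among 725 genes within 1.5-fold of its mean level, 5.66% had a lower fold change. Its SD on the log2 scale within R, 0.78, exceeded that of 94.8% of those genes, for which the median was 0.27, while within BR its SD of 0.17 was below their median of 0.23.

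The size of the NIN2b difference depended on R3 and R4, and its call was lost in most fits with 1 library left out. Without R3 and R4 its log2 fold change was -0.46 (edgeR adjusted p = 0.144), and without R1 and R2 it was -1.74 (edgeR adjusted p = 0.000525). Leaving out any single BR library, or R3 or R4, gave an adjusted p between 0.065 and 0.0711 with edgeR. The log2 fold change stayed at -1.29 to -1.18 without a BR library, and was -1.17 without R3 and -0.88 without R4. Fewer genes were called over all tested genes in these fits too, 2848 to 4375, beside 5409 with all libraries. Leaving out R1 or R2 kept the call. R3 and R4 also differed from the other libraries in the trend of transcript level with gene length. The slope on log2 length was taken of each gene's log2 CPM less its mean over the 8 libraries. It was 0.142 in R3 and 0.148 in R4, where the other 6 lay between -0.148 (BR1) and 0.0142 (BR2). A positive slope means that longer genes read relatively higher in that library. NIN2b has a counted length of 2010 bases, the shortest of the 4 genes, and it read high in R3 and R4. The part of this trend in the NIN2b result was not tested.

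NIN1a was lower on average in BR without passing the test. It measured 35.9, 48.3, 48.1 and 40.0 CPM in BR1 to BR4, against 70.2, 72.2, 40.1 and 67.6 CPM in R1 to R4. R1, R2 and R4 lay above every BR library, and R3 lay within the BR range. The means were 43.1 ± 6.16 CPM in BR and 62.5 ± 15.1 CPM in R (SD, n = 4). The log2 fold change was -0.54 (SE 0.2, 95% interval before adjustment -0.99 to -0.09; edgeR adjusted p = 0.0892). Without R3 the log2 fold change was -0.71 and the adjusted p 0.024 with edgeR. R3, the lowest R library for NIN1a, was the second highest for NIN2b.

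NIN1b gave the smallest difference of the 4. It measured 39.5, 59.2, 43.2 and 37.6 CPM in BR1 to BR4, against 58.2, 69.9, 37.3 and 48.7 CPM in R1 to R4. The groups overlapped widely, with R2 highest and R3 lowest of all 8 libraries. The means were 44.9 ± 9.84 CPM in BR and 53.5 ± 13.9 CPM in R (SD, n = 4). The log2 fold change was -0.25 (SE 0.22; adjusted p = 0.44 with edgeR). The 95% interval of -0.74 to 0.23 includes both no difference and a fall as large as the fitted one of NIN1a. Without R1 and R2 the sign turned, to 0.08 (edgeR adjusted p = 0.808).

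**Figure D2:**
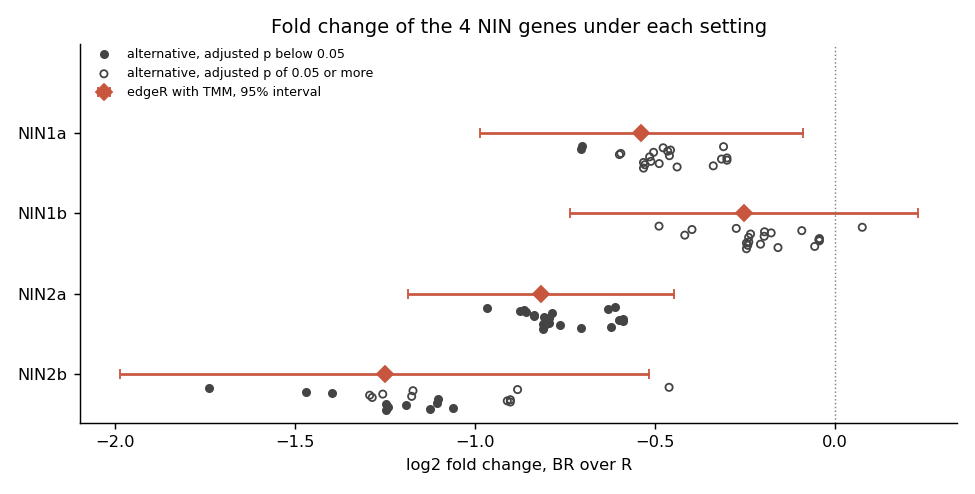
Log2 fold change, BR over R (horizontal axis), of each NIN gene; diamonds are the edgeR fit with TMM scaling and its 95% interval before adjustment for multiple tests, and small points are 21 alternative settings, filled where the adjusted p was below 0.05. All NIN2a points are filled, NIN2b is divided between filled and open points, and NIN1b has a single point above 0, at 0.08.

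The scaling of the libraries moved all 4 values together. Compared with TMM, total-count scaling shifted the median log2 fold change over the tested genes up by 0.19 and upper-quartile factors shifted it up by 0.11. The share of calls that were higher in BR was 43.5% under TMM, 57.7% under upper-quartile factors and 71.2% under total counts. With total counts the log2 fold changes were -0.34 for NIN1a, -0.06 for NIN1b, -0.62 for NIN2a and -1.06 for NIN2b, with edgeR adjusted p-values of 0.25, 0.872, 0.0276 and 0.0486. Relative to the median of all genes the values hardly moved, at -0.52, -0.23, -0.80 and -1.24 with total counts, beside -0.52, -0.24, -0.80 and -1.24 with TMM. That follows from the shift itself, which moves the median along with the genes, and is no separate check. On the total-count scale NIN2b no longer separated the groups, since R2 (132 CPM) lay below BR3 (139.99 CPM), whereas NIN2a still did.

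Levels of different genes were compared in FPKM (counts scaled to gene length and library total, with no TMM factor). In FPKM, NIN2b was the highest of the 4 genes in all 8 libraries and NIN2a the second. The order of the NIN2 pair depended in part on the counted lengths, 2010 bases for NIN2b and 2967 for NIN2a. In counts, NIN2a exceeded NIN2b in BR2 (1940 against 1805) and in R2 (2156 against 1957), and lay below it in the other libraries. NIN2b averaged 62.7 ± 7.6 FPKM in BR and 130.9 ± 69 FPKM in R, and NIN2a 36.7 ± 2.17 FPKM in BR and 56.6 ± 12.6 FPKM in R (SD, n = 4). The NIN1 genes were close to each other. NIN1b averaged 18.1 ± 3.92 FPKM in BR and 18.9 ± 4.77 FPKM in R, and NIN1a 14.96 ± 2.31 FPKM in BR and 18.9 ± 4.4 FPKM in R (SD, n = 4). Their order in FPKM changed between libraries, with NIN1b above NIN1a in all 4 BR libraries and in R2 and R3, and below it in R1 and R4. This order too depended on the counted lengths, 3077 bases for NIN1a and 2641 for NIN1b. In counts, NIN1b exceeded NIN1a only in BR1 (625 against 567) and BR2 (1085 against 884). Among the 39910 genes with an FPKM value, NIN2b ranked 1959th in BR2, its lowest place, and 310th in R4, its highest, while NIN1a ranked between 7773rd in BR1 and 4477th in R2.

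**Figure D3:**
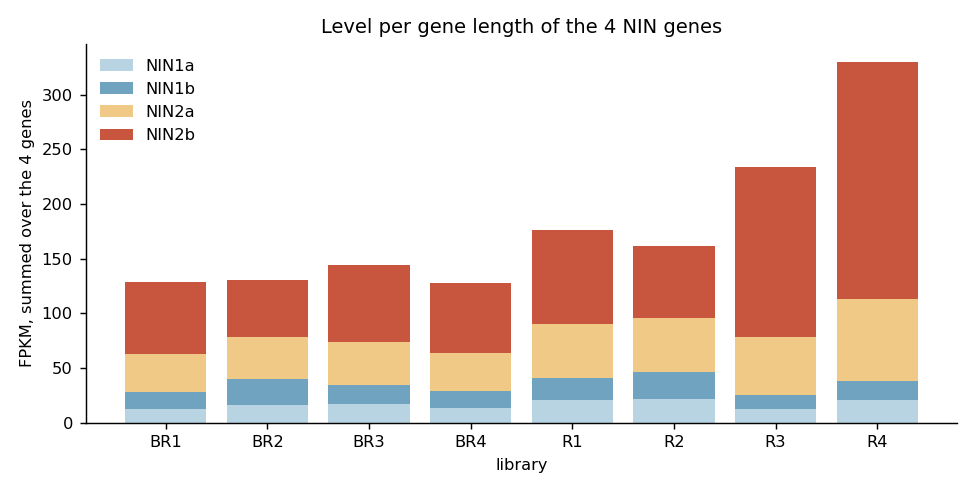
FPKM of the 4 NIN genes stacked for each library (vertical axis, FPKM; horizontal axis, library). The sums lie at 127 to 144 FPKM in BR and at 161 to 329.8 FPKM in R, and NIN2b takes the largest part in every library, reaching 66.6% in R3 and 65.7% in R4.

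Summed over the 4 genes, NIN transcripts came to 129, 130.1, 144 and 127 FPKM in BR1 to BR4, against 176, 161, 234 and 329.8 FPKM in R1 to R4. The BR sums were nearly level and every R sum lay above them. Among single genes in TMM-scaled CPM, 13.1% of all tested had all BR libraries below all R libraries, and 27.5% of those above 100 CPM. The NIN2 pair supplied most of the sum in each library, between 69% and 78.4% in BR and between 71.1% and 89% in R. The NIN1 pair together gave 27.8, 40.4, 35.0 and 29.3 FPKM in BR1 to BR4, against 40.9, 46.7, 25.8 and 37.9 FPKM in R1 to R4, so that R1 and R2 lay above all BR sums and R3 below them. In TMM-scaled CPM, which is not scaled to gene length, the NIN1 pair summed to 75.4 to 108 CPM in BR. The R sums were 128, 142, 77.5 and 116 CPM in R1 to R4, with 3 of the 4 R libraries above every BR library. The share of NIN2b alone was 51%, 39.9%, 48.4% and 49.97% in BR1 to BR4, against 48.6%, 40.7%, 66.6% and 65.7% in R1 to R4. R1 and R2 lay within the BR range for this share, and R3 and R4 above it.

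Ratios between 2 genes inside a library do not depend on how libraries are scaled. NIN1a over NIN1b, in counts per length, was 0.779, 0.699, 0.956 and 0.912 in BR1 to BR4, against 1.04, 0.886, 0.923 and 1.19 in R1 to R4. The log2 ratio averaged -0.27 ± 0.21 in BR and 0.00324 ± 0.192 in R (SD, n = 4), a difference of -0.27 (SE 0.14) that did not pass an exact two-sided permutation test (p = 0.143; 0.286 adjusted over the 2 homeolog ratios). The smallest p that 4 libraries against 4 can give is 0.029.

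NIN2a over NIN2b was 0.539, 0.728, 0.563 and 0.542 in BR1 to BR4, against 0.579, 0.746, 0.336 and 0.348 in R1 to R4. The R3 and R4 ratios lay below all others, and R1 and R2 lay within or just above the BR range. The log2 ratio averaged -0.77 ± 0.21 in BR and -1.08 ± 0.56 in R (SD, n = 4), a difference of 0.31 (SE 0.3; exact two-sided permutation p = 0.4, 0.4 adjusted over the 2 ratios). Without R3 and R4 the difference turned to -0.16. In neither pair did the difference between homeologs in their response to Bac.B pass the test.

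A like comparison was made across the pairs, for 4 further ratios chosen after the values were seen. The difference of the log2 ratio between BR and R was -0.28 (SE 0.24) for NIN2a over NIN1a and -0.56 (SE 0.3) for NIN2a over NIN1b. It was -0.59 (SE 0.53) for NIN2b over NIN1a and -0.87 (SE 0.6) for NIN2b over NIN1b. All 4 were negative and none passed, with exact two-sided permutation p-values of 0.2 to 0.371 and 0.4 for each after adjustment over the 6 ratios. A stronger fall of the NIN2 genes than of the NIN1 genes was therefore not shown by a test of the difference, although the NIN2 genes alone were called. The ratio that varied most between R libraries was NIN2b over NIN1b, at 4.19, 2.19, 3.89 and 4.16 in BR1 to BR4, against 4.25, 2.65, 11.6 and 12.5 in R1 to R4. BR2 and R2 were the lowest of their groups for this ratio, with the highest NIN1b and the lowest NIN2b level of each group.

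**Figure D4:**
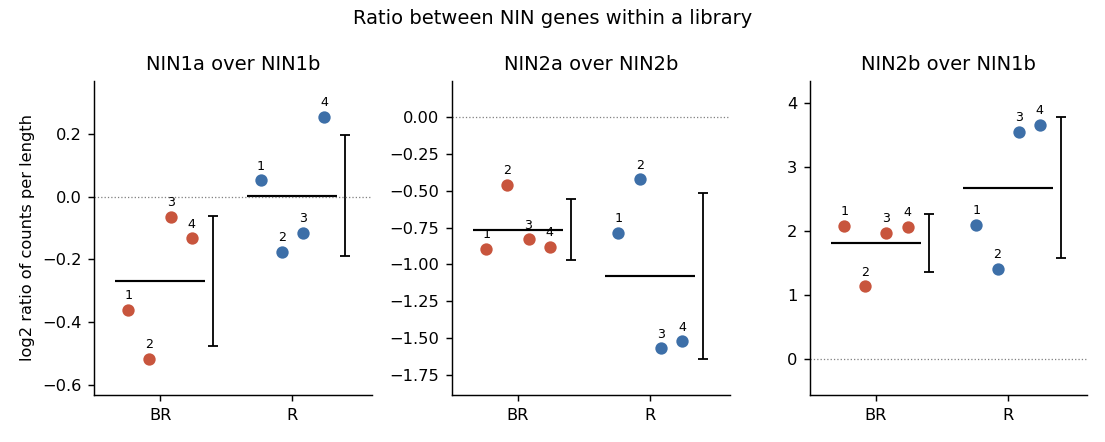
Log2 ratio of counts per gene length between NIN genes within each library (vertical axes), for NIN1a over NIN1b, NIN2a over NIN2b and NIN2b over NIN1b, in BR and R; points are libraries with their replicate number, horizontal bars are means and the bars beside them SD (n = 4). BR and R overlap in all 3 ratios, and R3 and R4 stand apart in the ratios that hold NIN2b.

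The profiles over the 8 libraries were compared by the root mean square difference of mean-centred log2 CPM, each against 27883 other genes of at least 1 CPM on average. The NIN1 homeologs were at 0.22 from each other, with 0.484% of genes nearer to NIN1a and 1.06% nearer to NIN1b. The NIN2 homeologs were at 0.4, with 25.2% of genes nearer to NIN2a and 3.33% nearer to NIN2b. Seen from NIN2a, NIN1a was nearer (0.33) than its own homeolog NIN2b (0.4). NIN1b and NIN2b were the least alike of the 4, at 0.85. These distances depend on the size of a gene's variation as well as on its shape, and NIN2b varied most between R libraries. They share libraries and scaling and are given as a description.

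The gene most like NIN2a was Glyma.08G240300.Wm82.a2.v1, at a distance of 0.08, with 36.6, 37.3, 39.4 and 36.7 CPM in BR1 to BR4, against 57.0, 61.6, 66.9 and 81.6 CPM in R1 to R4. The one most like NIN2b was Glyma.13G262000.Wm82.a2.v1, at 0.09, with 30.9, 23.5, 33.1 and 33.4 CPM in BR1 to BR4, against 54.7, 36.2, 91 and 127 CPM in R1 to R4. Both genes were chosen for the likeness of these values, so the shared pattern is no separate result. Nearest to NIN1a was Glyma.09G229800.Wm82.a2.v1, at 0.1, and nearest to NIN1b was Glyma.01G203000.Wm82.a2.v1, also at 0.1. Their mean levels were low, 4.69 and 7.1 CPM. Neither passed the test between BR and R (edgeR adjusted p = 0.102 and 0.72). They were chosen for likeness to genes that were not called, so this is no separate result either.

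All 4 NIN genes lie near the end of a chromosome by the order of identifiers. NIN1a is gene 6 of the 2020 counted on chromosome 4, NIN1b gene 4 of 2541 on chromosome 6 and NIN2b gene 14 of 1720 on chromosome 14, while NIN2a is gene 2481 of 2491 on chromosome 2. The 5 nearest tested genes on each side of each NIN gene were 37 in all, because the ends were reached. Of these, 1 was called higher and 1 lower in BR, which is 5.41%, beside 18.3% of all tested genes. The neighbours had means of 0.63 to 62.7 CPM, and they were not compared with genes of like abundance. The median log2 fold change of the neighbours was -0.24 around NIN2a and -0.24 around NIN2b, against -0.82 and -1.25 for the genes themselves. No neighbour of either fell as far as its NIN gene, the lowest being -0.36 and -0.74. Around NIN1a the median was -0.11 and the lowest -0.48, beside -0.54 for NIN1a. Around NIN1b the median was 0.06 and the lowest -0.35, further down than NIN1b itself at -0.25.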

How the data were processed

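The authors deposited unscaled gene counts for each library and, separately, FPKM. The submitters' processing notes list HTSeq 0.6.0, HISAT2 2.1.0, Bowtie2 2.2.3, CASAVA and TopHat2 but not what each did; build and strand setting are not given in the sources used here. Counts divided by the deposited FPKM and library totals gave 1 length per gene within 0.1% for 39910 genes. Reads of near-identical copies may be split or lost in counting, so values within a homeolog pair are uncertain to that degree.

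BR was compared with R in R 4.3.3 with edgeR 4.0.16 (filterByExpr with minimum count 10, TMM, quasi-likelihood F test without covariates, Benjamini-Hochberg over 29508 genes, threshold 0.05), tested on simulated data first. The SE of an edgeR fit is the absolute log2 fold change over the square root of F. Ratios used a prior count of 0.5. Alternatives included DESeq2 1.42.0 and limma 3.58.1. The NIN genes were named by rule whether or not they changed, with the nearest profile for each. The members, lists and alternatives were chosen with earlier results of these data known. The reference table matched 0 of 43517 identifiers, so pathway and marker lists were not applied. No 2 libraries of a group agreed within sampling noise (chi-square per degree of freedom at least 7.2). Counting errors cover counting only.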

Additional observations from a re-analysis of the deposited data

Results flagged for a closer look

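Each group of 4 libraries was searched for 1 far from the others, over the CPM of the 4 genes and 6 ratios between them, 20 groups in all; chance gives such a library in about 1 of 20. This occurred 5 times. For NIN1a, R3 had 40.1 CPM, below the other R libraries at 67.6 to 72.2. For NIN2a, R4 had 238 CPM, above the others at 156 to 164. BR2 stood apart within BR in 3 log2 ratios that share their genes: -0.46 for NIN2a over NIN2b, 0.67 for NIN2a over NIN1b and 1.13 for NIN2b over NIN1b.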

How the results depend on the processing

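NIN2a kept its call in 21 of 21 alternatives, NIN2b in 11. With FPKM and limma, NIN2b had a log2 fold change of -0.90 with a pseudocount of 1 (adjusted p = 0.107, and 0.0765 with a mean FPKM of at least 1) and -0.91 with 0.1 (adjusted p = 0.0954); without R3 and R4 it was -0.46. NIN1a was called without R3 and without R3 and R4 (-0.70, edgeR adjusted p = 0.0289). NIN1b was called in 0, and reversed without R1 and R2 (0.075). Leaving out 1 library gave log2 fold changes of -0.71 to -0.46 for NIN1a, -0.42 to -0.09 for NIN1b, -0.88 to -0.63 for NIN2a and -1.47 to -0.88 for NIN2b. It gave differences of -0.34 to -0.19 for NIN1a over NIN1b and 0.15 to 0.53 for NIN2a over NIN2b, which was -0.16 without R3 and R4.

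Over all genes 5409 were called, 2848 to 7333 with 1 library left out, fewest without BR3 and most without R2, 10237 without R1 and R2 and 3554 without R3 and R4; fewer libraries enter these fits, and the cause of the rises was not tested. With the replicate block 4633 were called and no NIN call changed (log2 fold changes -0.52, -0.24, -0.79 and -1.10 for NIN1a, NIN1b, NIN2a and NIN2b). Same-numbered libraries deviated together only weakly (correlations 0.07, 0.09, -0.08 and 0.09), so the numbers do not show pairs. In sign flips of the 4 pairs, where 0.125 is the smallest p, the homeolog ratios had exact p = 0.25 and 0.5.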
